A study of Mus musculus with 2 samples.

Results

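Genomic imprinting silences 1 parental copy of a gene, in many cases under the control of DNA methylation set in the germ line. Several imprinted genes carry microRNAs (miRNAs) in their introns or exons. The best known group in the mouse lies in the Dlk1-Dio3 region. The miRNAs described here come from 5 other precursors. miR-335 lies in an intron of Mest, a paternally expressed gene of mesoderm. miR-296 and miR-298 belong to the Gnas region, near the antisense transcript Nespas. miR-483 lies in an intron of Igf2, the paternally expressed fetal growth factor gene, and miR-675 in an exon of H19, the maternally expressed non-coding RNA that shares its imprinting control with Igf2. Each hairpin precursor is cut into 2 mature arms, 5p and 3p, and the arm that is loaded into Argonaute pairs with messenger RNAs through its seed, bases 2 to 8.

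Members were taken by name as either arm of these 5 precursors, which gave 10 of the 1265 mature miRNA probes on the array. Total RNA came from day 10 and from day 0 of differentiation of mouse embryonic stem cells as embryoid bodies, aggregates that the cells form in ultra-low attachment dishes. Both days used the ES-D3 line of strain 129S2/SvPas (CRL-1934 in the ATCC catalogue). Each day had 1 array labelled with Cy5 and no replicate array. The labels name no feeder cells, sorting or pooling.

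All 10 array targets had a RefSeq mature entry of the same name (build GRCm38.p6). The sequence was the same for 9, and the RefSeq entry of miR-298-3p runs 2 bases longer at its 3′ end. The Mir335 hairpin lies at chr6:30741299-30741396 on the plus strand, within the annotated span of Mest. Mir296 (chr2:174267047-174267125) and Mir298 (chr2:174267504-174267585) lie on the minus strand 378 bases apart, between Gm10714 and Gnasas1, for which Nespas is an older name. Mir483 (chr7:142654924-142654996) and Mir675 (chr7:142577064-142577147) also lie on the minus strand, within the spans of Igf2 and H19, with 77776 bases between them. The 7 members that at least 1 array detected are shown first, as the values below rest on them, with the seed in capitals.
miR-335-5p: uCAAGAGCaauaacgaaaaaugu
miR-335-3p: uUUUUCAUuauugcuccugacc
miR-296-5p: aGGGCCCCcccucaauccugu
miR-296-3p: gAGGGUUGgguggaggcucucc
miR-298-5p: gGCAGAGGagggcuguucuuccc
miR-483-5p: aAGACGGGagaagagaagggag
miR-483-3p: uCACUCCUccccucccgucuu
The hairpins of the precursors with the largest differences follow, with the mature arms in capitals, to show which stretches the probes read.
Mir335 hairpin: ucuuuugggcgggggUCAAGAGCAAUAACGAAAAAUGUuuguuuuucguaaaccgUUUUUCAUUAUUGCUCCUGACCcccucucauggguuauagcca
Mir483 hairpin: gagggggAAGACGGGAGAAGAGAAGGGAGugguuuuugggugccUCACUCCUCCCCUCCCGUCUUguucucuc

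No member shared its seed with another member or with any other target on the array. The longest run of bases that a member shared with another target was 8 to 11, the longest being between miR-298-5p and miR-5107-5p. The 2 arms of miR-483 have opposite composition. miR-483-5p has 21 purines (A or G) and 1 pyrimidine, and miR-483-3p has 2 purines and 19 pyrimidines. Both arms of miR-335 are poor in G and C, at 30.4% for the 5p arm and 36.4% for the 3p arm, while the other 8 members lie between 54.5% and 68.2%.

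Signal is given first as the scanner's median density per spot, as deposited, with 3 spots per probe on each array. The SDs are over these 3 spots and are technical, so they hold none of the variation between cultures, and no test was possible. Detection required a median over the 3 spots above the 95th percentile of the array's 5 blank spots, which was 71.4 on day 10 and 70.0 on day 0. Day 10 detected 476 of the 1265 probes (37.6%) and day 0 detected 738 (58.3%). Among the 10 members, day 10 detected 6 and day 0 detected 7. The day 10 array was dimmer over the 739 probes detected on at least 1 array, with a median log2 difference of -0.77 in scanner signal. The 19 spike-in probes had a median of -0.25, and the 5 probes for 5S rRNA 0.15. Normalized levels are log2 values after background correction and quantile normalization, and their differences, day 10 minus day 0, are relative to the bulk of miRNAs (median of the 739 probes 0.024). In RNA of a mixed culture, fewer cells of a type and less of a miRNA per cell cannot be told apart.

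Both arms of miR-335 were brighter on day 10 before and after normalization. mmu-miR-335-5p, which in human breast cancer cells represses SOX4 and other drivers of metastasis, had scanner signals of 378, 428 and 410 on day 10, against 328.8, 345 and 319 on day 0. mmu-miR-335-3p, the other arm of the hairpin, had 298.7, 345 and 332 on day 10, against 267, 279 and 258 on day 0. For each arm, every day 10 spot lay above every day 0 spot, and the means differed by 1.23-fold for miR-335-5p and 1.21-fold for miR-335-3p.

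On the normalized scale, miR-335-5p was at 9.27 on day 10 and 7.91 on day 0, which is 2.58-fold higher (log2 difference 1.37, SD 0.058). miR-335-3p was at 8.96 on day 10 and 7.66 on day 0, 2.46-fold higher (1.30, SD 0.12). The differences of the 2 arms lay 0.066 apart, less than their combined spot SD of 0.13. In the authors' processed values miR-335-5p stood at 522 on day 10 and 200.3 on day 0, and miR-335-3p at 429.1 on day 10 and 147 on day 0. These are ratios of 2.61 and 2.91.

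**Figure D1:**
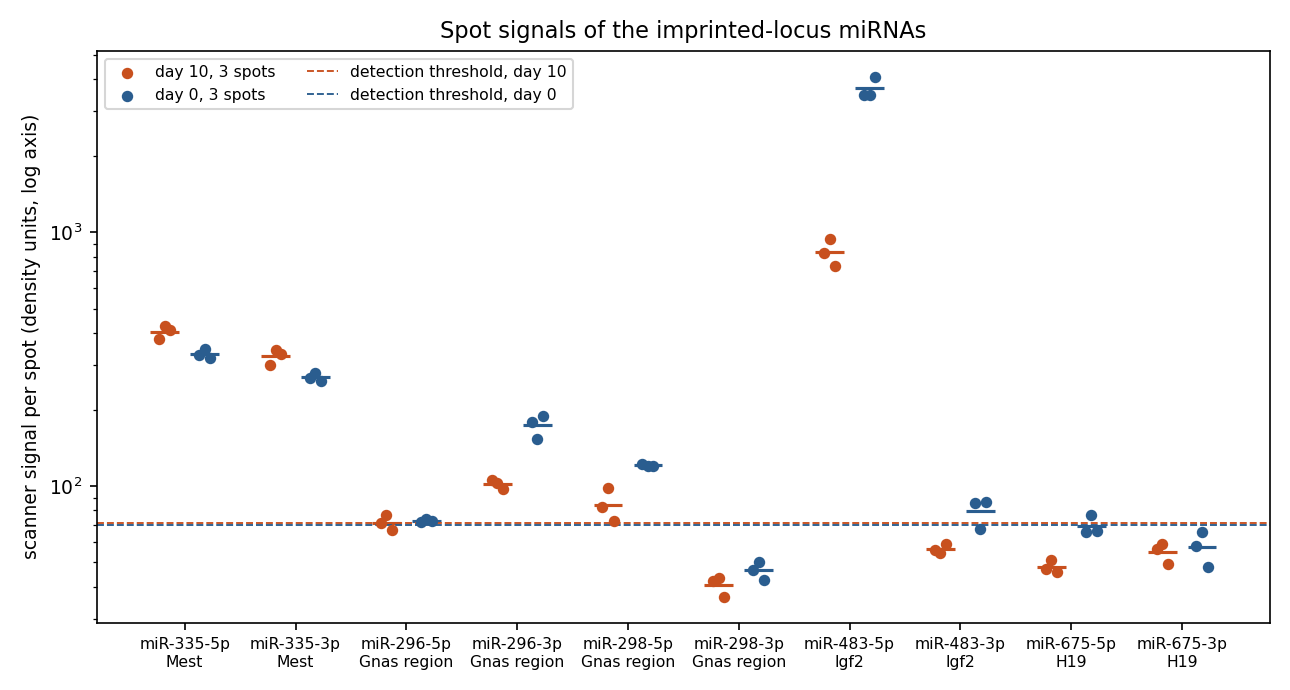
Scanner signal of each spot (density units, log axis) for the 10 members, with day 10 in orange left of day 0 in blue. Short bars are means over 3 spots, and dashed lines are the detection thresholds of 71.4 on day 10 and 70.0 on day 0. Only the arms of miR-335 have all day 10 spots above all day 0 spots, and the day 10 spots of miR-483-5p lie between 734 and 936, below its day 0 spots.

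Few miRNAs on these arrays did this in scanner signal. Day 10 spots lay wholly above day 0 spots for 34 of the 739 detected probes (4.6%), and the 2 arms of miR-335 were the only such members among the 7 detected. At 2-fold on the normalized scale, 2 of the 7 detected members were higher, again the arms of miR-335, against 6.77% of the detected probes. Of the detected probes, 16 had a larger difference than miR-335-5p and 21 a larger one than miR-335-3p. Among the other probes whose mean level lay within 0.5 log2 of its own, 5 of 93 had a larger difference than miR-335-5p and 5 of 110 a larger one than miR-335-3p.

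The size of the miR-335 difference depended on the scaling between arrays, though its sign did not. Over 14 alternatives for the values, all were above 0. They ran from 0.15 with the 5S rRNA probes set equal to 1.83 with the blank spots subtracted for miR-335-5p, and from 0.13 to 1.87 under the same settings for miR-335-3p. Both arms were below 2-fold without normalization (0.29 for miR-335-5p and 0.28 for miR-335-3p), with spike-in probes set equal (0.52 and 0.50) and in the 5S rRNA scaling. Set against the median of the detected probes, miR-335-5p ran from 0.92 to 2.38 and miR-335-3p from 0.91 to 2.42 over 15 settings.

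Base composition moved with the difference across the array. Among detected probes with less than 40% G and C, 26 of 129 (20.2%) were at least 2-fold higher and the median difference was 0.36. The median was 0.17 for probes from 40% to under 50%, -0.12 from 50% to under 60%, and -0.10 at 60% and above, where 2 of 172 probes (1.16%) were 2-fold higher. Both arms of miR-335 fall in the lowest class. Within it, 7 of the 129 probes had a larger difference than miR-335-5p and 10 a larger one than miR-335-3p, and the arms lay 1.003 and 0.94 above the median of the class. The part of composition in the miR-335 difference was not tested, and the classes were chosen after the values were seen.

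**Figure D2:**
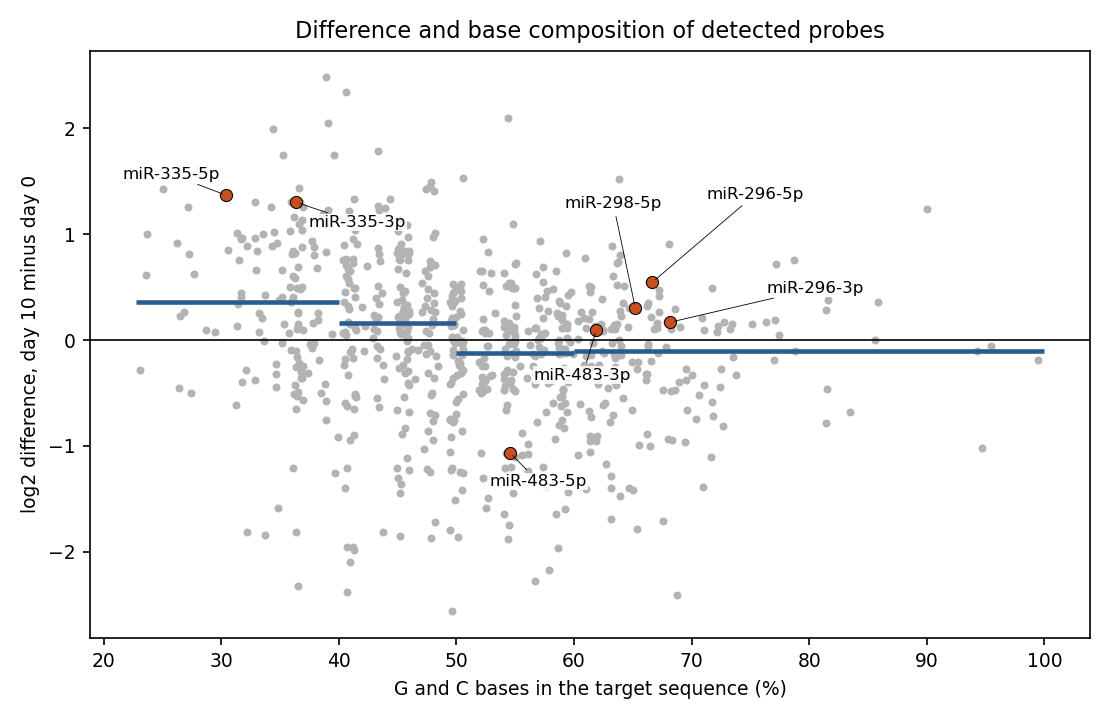
Share of G and C bases in the array's target (percent, points spread slightly sideways) and log2 difference, day 10 minus day 0, for the 739 detected probes in grey and the 7 detected members in orange. Blue bars are the medians of 4 classes of G and C content, 0.36, 0.17, -0.12 and -0.10. The arms of miR-335 lie in the lowest class, above its median.

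mmu-miR-483-5p, the purine-rich arm of the Igf2 intron hairpin, was dimmer on day 10. Its spots gave 825, 936 and 734 on day 10, against 3480, 3488 and 4098 on day 0. All day 10 spots were below all day 0 spots, as for 4 of the 7 detected members and 83.9% of the detected probes. The mean signal was 832 (SD 102) on day 10 and 3689 (SD 355) on day 0, 4.44-fold lower. The scanner log2 difference was -2.15, against a median of -0.79 for 48 other probes of like mean level.

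On the normalized scale miR-483-5p was at 10.32 on day 10 and 11.38 on day 0, 2.09-fold lower (log2 difference -1.06, SD 0.31). It was the only member at least 2-fold lower, 1 of 7 detected, against 10.4% of detected probes. Of the detected probes, 71 had a lower difference. Of the 48 probes of like level, 8 had a lower one, and their median was 0.27. The value lies close to the 2-fold threshold: it was -0.89 without the third spot, -0.98 with the median over spots and -0.93 with the 75th percentile set equal. It was below 0 under all 14 alternatives, down to -2.27 when the 5S rRNA probes were set equal. Set against the median of the detected probes it ran from -1.50 to -0.57. The authors' processed values were 1102 on day 10 and 2626 on day 0, a ratio of 0.419.

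Probes of like composition differed in both directions. Of 17 detected probes with at least 80% purines, 9 were above 0 and 8 below, with a median of 0.069, and miR-483-5p was the only one 2-fold lower. Of 238 detected probes with 50% to under 60% G and C, 31 had a lower difference. Markers of mesenchyme and fibroblasts, cell types known to express Igf2, were also lower on day 10. Of 19 such probes 15 were detected. A 2-fold lower level was seen for 9 of these and a 2-fold higher one for none, and 2 of the 15 were above 0. Their summed scanner signal was 2971 on day 10 and 15115 on day 0. Their part in the miR-483-5p difference was not tested.

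mmu-miR-483-3p, the other arm, which in human tumour cells represses the pro-apoptotic gene BBC3, was near the detection threshold. Its spots gave 55.8, 54.4 and 59.2 on day 10, against 85.7, 67.4 and 86.5 on day 0. None of the day 10 spots and 2 of the day 0 spots passed the threshold. The normalized levels were 6.46 on day 10 and 6.36 on day 0 (log2 difference 0.099, SD 0.082), with no fold given because the day 10 array did not detect it. Its sign turned with the scaling, from 0.86 with the 75th percentile set equal to -1.17 with the blank spots subtracted. Because 1 array did not detect it, its difference is not set against that of miR-483-5p.

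**Figure D3:**
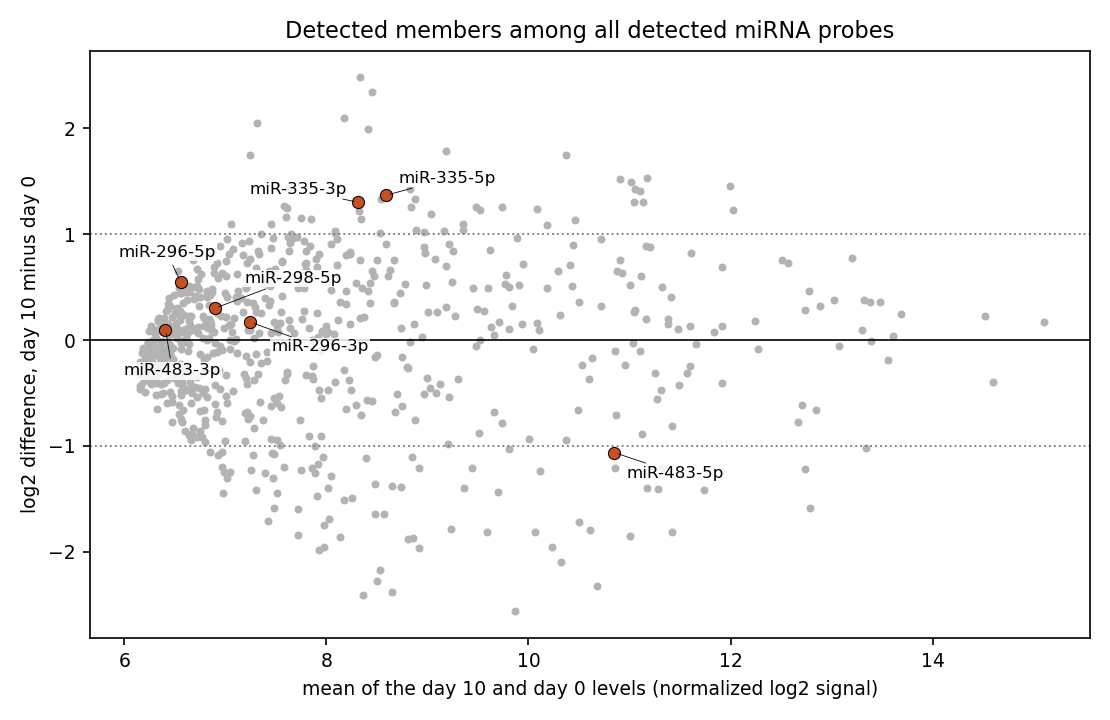
Mean of the day 10 and day 0 normalized log2 levels and log2 difference, day 10 minus day 0, for the 739 detected probes in grey and the 7 detected members in orange, with dotted lines at 2-fold. The arms of miR-335 lie above the upper line at 1.37 and 1.30, miR-483-5p lies just below the lower one at -1.06, and the other 4 lie between the lines.

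The miRNAs of the Gnas region showed no 2-fold difference after normexp correction and quantile normalization. With the blank spots subtracted, miR-296-5p and miR-298-5p were called 2-fold higher, where 20.8% of detected probes were higher and 40.6% lower. miR-296-5p was also called higher with the 75th percentile set equal, where 16.5% of detected probes were higher and 6.9% lower. miR-296 is known from mouse embryonic stem cells, where its rise on retinoic acid treatment goes with repression of pluripotency factors through sites in their coding sequence. mmu-miR-296-3p had scanner signals of 105, 102 and 97.5 on day 10, against 178, 153 and 189 on day 0. All day 10 spots were below all day 0 spots. The normalized levels were 7.33 on day 10 and 7.16 on day 0 (log2 difference 0.17, SD 0.18), a difference no larger than the spot SD, and it was -0.65 without normalization.

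mmu-miR-296-5p lay on the threshold on both arrays, with signals of 71.4, 76.6 and 66.8 on day 10 against 71.8, 74.2 and 72.6 on day 0. The 2 sets of spots overlapped. Its normalized level was 6.83 on day 10 and 6.29 on day 0 (log2 difference 0.55, SD 0.084), but the value was -0.027 in scanner signal, -0.11 in the 5S rRNA scaling and 1.23 both with the 75th percentile set equal and with the blank spots subtracted. The authors' values of 48.1 on day 10 and 17.3 on day 0 have a ratio of 2.79. As deposited, its mean signal was 71.6 (SD 4.89) on day 10 and 72.9 (SD 1.23) on day 0.

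mmu-miR-298-5p, from the neighbouring hairpin and known in the mouse to repress the beta-secretase gene Bace1, had signals of 82.6, 97.7 and 73.0 on day 10, against 122, 119.6 and 120.2 on day 0. The day 10 spots were lower and more spread. The normalized level was 7.05 on day 10 and 6.75 on day 0 (log2 difference 0.30, SD 0.20). The difference ran from -0.55 in the 5S rRNA scaling to 2.16 with the blank spots subtracted. mmu-miR-298-3p was not detected, with signals of 36.6 to 43.3 on day 10 and 42.6 to 50.1 on day 0.

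Neither arm of miR-675, which in the mouse placenta limits growth and represses Igf1r, was detected on either day. mmu-miR-675-5p gave 46.9, 51.3 and 45.8 on day 10, against 65.6, 76.8 and 66.5 on day 0, where 1 spot passed the threshold. mmu-miR-675-3p gave 56.6, 58.9 and 49.4 on day 10, against 57.9, 66.0 and 48.1 on day 0. The spots of miR-675-5p were lower on day 10 and those of miR-675-3p overlapped. Both arms lay in the range of the blank spots, which ran from 36.2 to 71.6 on day 10 and from 36.6 to 72.7 on day 0, except for that 1 day 0 spot. The miR-675 levels are therefore bounded by the background and no fold is given.

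**Figure D4:**
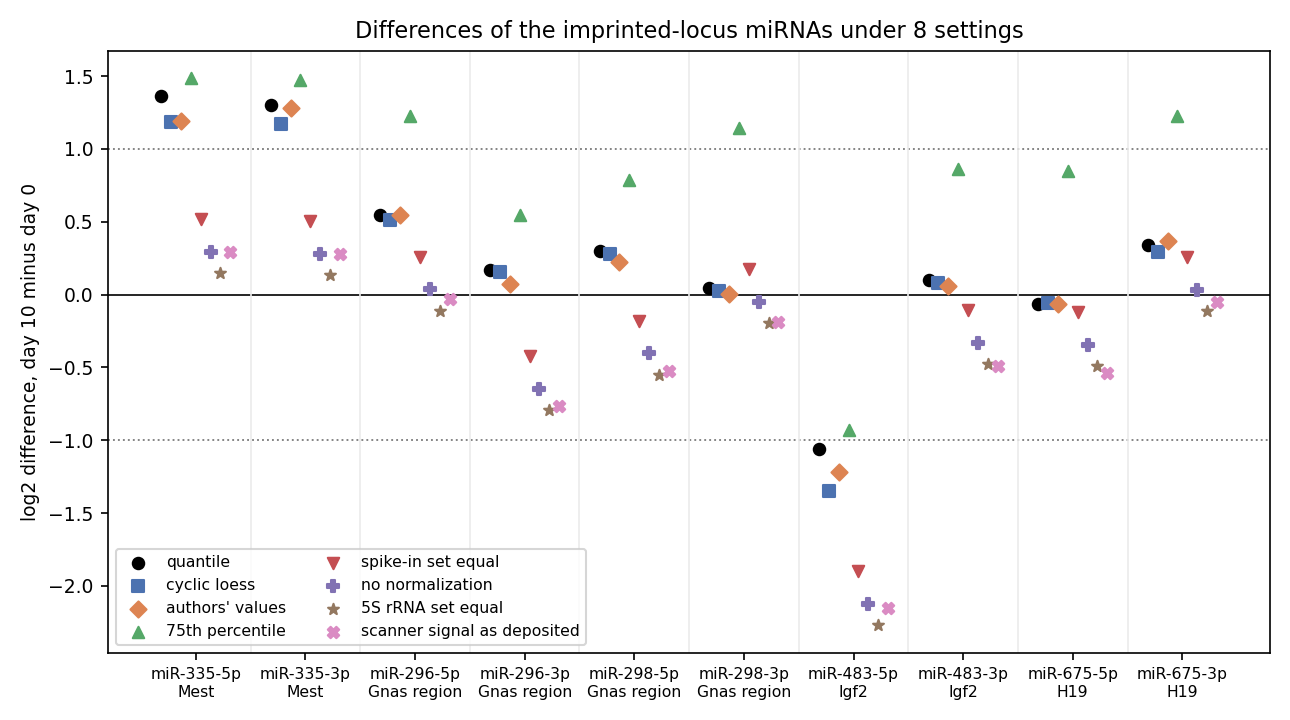
Log2 difference, day 10 minus day 0, of the 10 members under 8 settings for background and scaling, with dotted lines at 2-fold. Both arms of miR-335 lie above 0 and miR-483-5p below 0 under all 8, while each of the other 7 members lies on both sides of 0.

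Across the group, 6 of the 7 detected members were above 0 after quantile normalization and miR-483-5p alone below, against 51.3% of the 739 detected probes above 0. Of these 6, the 4 other than the arms of miR-335 changed sign with the setting. The 7 had a median of 0.30 against 0.024 for all detected probes. After quantile normalization none of the 7 reached 4-fold, as did 0.541% of detected probes on the higher side and 0.947% on the lower. In scanner signal 2 of the 7, the arms of the single miR-335 hairpin, were brighter on day 10, against 8.39% of detected probes. The other imprinted groups on the array also held differences in both directions. A list of 100 probes of the Dlk1-Dio3 region, which did not hold miR-3070, had 65 detected, with 12 at least 2-fold higher, 3 lower and a median of 0.40. The imprinted Sfmbt2 intron had 65 of 71 detected, with 6 higher, 10 lower and a median of 0.16. Over all 739 detected probes, 50 were higher and 77 lower, and 6 and 232 without normalization. Markers of pluripotent cells were probes of the miR-290 and miR-302 clusters, in a list that did not hold miR-290 itself. Of these 22 probes 15 were detected, 14 of them above 0, 4 at least 2-fold higher and 0 lower. Their summed scanner signal was 55670 on day 10 and 68818 on day 0. Outside this list, the normalized log2 difference was 0.25 for miR-290-5p and 0.49 for miR-290-3p. Markers of epithelium had 10 of 14 probes detected, 5 at least 2-fold higher and 0 lower, with a median of 0.82 and a summed scanner signal of 1971 on day 10 and 1938 on day 0. Markers of mesenchyme and fibroblasts went the other way, with a median of -1.21 and 13 of 15 detected probes below 0. After normalization, markers of pluripotent cells were thus mostly higher on the later day and those of mesenchyme mostly lower. With 1 array per day, neither the assignment of arrays to days nor the cells in each culture could be checked from these values. The part of any of these cell types in the miR-335 or miR-483-5p difference was not tested.

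By distance over the day 10 and day 0 normalized levels, the probes most like miR-335-5p were miR-541-5p (0.073) and miR-712-3p (0.33). Those most like miR-335-3p were miR-429-3p (0.060) and miR-15a-5p (0.12). Those most like miR-483-5p were miR-466f-5p (0.10) and miR-5124b (0.25). Those most like miR-296-5p were miR-1224-3p and miR-369-5p (0.090 and 0.11), and those most like miR-296-3p were miR-351-5p and miR-3071-5p (0.052 and 0.062). Those most like miR-298-5p were miR-5129-5p and miR-677-5p (0.040 and 0.044), and those most like miR-483-3p were miR-150-3p and miR-491-3p (0.0057 and 0.023). With 2 arrays, such likeness says only that the levels lie close on both days.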

How the data were processed

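Per the file headers, the deposited scanner files hold 1 linear intensity for each spot, its median density. They have no background column, and for background subtraction and scanner settings the sources used here give nothing. Each array held 3968 spots for the miRNAs of miRBase release 19. A further deposited table holds the authors' processed intensity per probe; its ranks followed the scanner signal (Spearman rho 0.996 on day 10 and 0.998 on day 0 across 1265 probes), its column medians were 22.0 on day 10 and 25.4 on day 0, and its background and scaling are unknown.

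Spot signals were corrected with normexp of limma 3.58.1 in R 4.3.3 (offset 50, all spots), log2 transformed, stripped of control spots, quantile normalized and averaged over 3 spots. The offset shrinks the differences of dim probes. A call needed a 2-fold difference and detection on the brighter array. With 1 array per day no test was run, and the number of arrays limits the precision. On simulated arrays of 1265 probes, the procedure called 40 of 40 raised 4-fold and 35 of 40 lowered 4-fold. The changed probes were drawn from those at or above the median detected level, with spot noise only. Changes of 2-fold were also simulated, and their recovery is not reported here. The recovery given does not cover changes near 2-fold, as those of the called members were, or dim probes. The authors' values entered as log2 of the value plus 50. The members and lists were chosen with earlier results of these data known. All members were named, with the 2 probes nearest to each detected one. Sequences are from the array files and RefSeq.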

Additional observations from a re-analysis of the deposited data

How the results depend on the processing

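The scaling between arrays moved the median of the detected probes, which was 0.024, to -0.63 with none, to -0.40 by the spike-in probes, to -0.77 by the 5S rRNA probes and to 0.57 by the 75th percentile, and the members moved with it. Without normalization the detected members had a median of -0.33, 0 of them were 2-fold higher, and of all probes 0.812% were higher and 31.4% lower. The same 4 values were -0.11, 0, 0.812% and 24.1% for the spike-in scaling and -0.48, 0, 0.541% and 36.1% for the 5S rRNA scaling. In scanner signal as deposited, a setting added after the data were seen, they were -0.49, 0, 0.812% and 37.9%. With the 75th percentile set equal the median was 0.86, and 3 members were higher (miR-296-5p besides the arms of miR-335) and 0 lower. Of all probes, 16.5% were higher and 6.9% lower in that setting. Subtracting the blank spots gave a median of 1.23, 4 members higher (miR-296-5p and miR-298-5p besides the arms of miR-335) and 2 lower (both arms of miR-483), and 20.8% of probes higher and 40.6% lower. An offset of 16 gave 11.0% of probes higher. The median over spots, or leaving out the third spot, left 0 members lower. Over probes detected on both arrays, which keeps 6 members, the median was 0.42 and 10.5% of probes were higher. A doubled threshold keeps 4 members and gave 0.73, with 10.6% higher and 16.7% lower. With no detection filter, 3.95% of probes were higher and 6.09% lower. At 4-fold on the quantile-normalized values, 0 members were higher and 0 lower, and 0.541% and 0.947% of probes. Cyclic loess, no background correction, the authors' values and leaving out the first or second spot kept the calls of the members. The causes were not tested, except that fewer or more probes entered under the other filters. No paired analysis was possible because there was a single array for each day. Low signal limits what can be said of miR-296-5p, miR-298-3p, miR-483-3p and both arms of miR-675.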
